A study of Mus musculus with 11 samples.

Results

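The genes described here are 7 that mark cholinergic neurons, the cells that make and release acetylcholine: Chat, Slc18a3, Slc5a7, Ache, Lhx8, Isl1 and Gbx1. They were taken by gene symbol, and all 7 are rows of both count tables, which hold 24391 symbols for the heterozygous round and 24015 for the homozygous round. They were chosen on measured values of the homozygous round, where most of them were lower in 1b-/- than in WT hippocampus, so their values in that comparison are given as a description with no test. The comparison of 1b+/- with its own WT mice uses other WT mice, but the genes were chosen with earlier results of these data known. The 1b+/- tests may therefore not be fully independent of that choice.

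RNA-seq was made from the hippocampus of 11 C57BL/6N mice of the Scn1a 1b line, with tissue from one hemisphere of each. Samples are labelled adult, and the age was postnatal day 32. The homozygous round held 2 WT mice, both female, and 2 1b-/- mice, 1 male (replicate 1) and 1 female (replicate 2), which lack both copies of the 1b non-coding interval of the sodium channel gene Scn1a. The heterozygous round held 3 male WT mice and 4 1b+/- mice with 1 deleted copy, 3 male and 1 female (replicate 4). WT mice carry neither the deletion nor any other labelled allele, and the mutants descend from 1 Cas9-made deletion line that was crossed to wild-type C57BL/6N mice. The deletion is present in every cell, so no cell type was targeted. No agent was given.

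Cholinergic neurons of the basal forebrain lie in the medial septum, the diagonal band and the nucleus basalis, and those of the septum and diagonal band send the main cholinergic input to the hippocampus. Their cell bodies lie outside the hippocampus, which itself holds few or no cells of this kind. Choline acetyltransferase (Chat) makes acetylcholine, the vesicular transporter Slc18a3 loads it into vesicles, acetylcholinesterase (Ache) breaks it down in the synaptic cleft, and the choline transporter Slc5a7 takes the choline back up. Every cholinergic neuron uses these proteins, also those of the striatum, the medial habenula and the brainstem. Lhx8, Isl1 and Gbx1 encode homeodomain transcription factors of ventral forebrain neurons, and Isl1 is also used by striatal projection neurons.

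Chat and Slc18a3 share a locus. In mm9, Chat (ENSMUSG00000021919.6) spans positions 33221389 to 33279095 of chromosome 14, minus strand, and the start of Slc18a3 at 33278036 lies in the first intron of both annotated Chat transcripts, 1059 bases downstream of the Chat start. The plus-strand gene Gm2990 also overlaps Chat. The strand setting of the counting is not given in the sources used here, so reads of these overlapping genes may not be fully separated. The 250 bases upstream of 4 start sites are shown because Chat, Slc18a3 and Slc5a7 had the most similar levels across libraries, while Ache did not follow them. They come from RefSeq (GRCm38.p6), each with 1 exact match in mm9, and read 5′ to 3′ on the strand of the gene. Capitals mark the letters CACGTG (Chat and Ache), GGGCGG on either strand (Slc18a3 and Ache) and TATAAA (Slc5a7). The Chat window is chr14:33279096-33279345, the Slc18a3 window chr14:33278037-33278286, the Slc5a7 window chr17:54438360-54438609 and the Ache window chr5:137729232-137729481.
Chat: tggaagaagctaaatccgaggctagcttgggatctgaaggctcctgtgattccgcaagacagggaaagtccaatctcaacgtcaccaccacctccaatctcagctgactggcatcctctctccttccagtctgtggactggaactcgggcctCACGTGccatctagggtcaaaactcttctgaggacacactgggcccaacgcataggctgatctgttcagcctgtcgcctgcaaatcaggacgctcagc
Slc18a3: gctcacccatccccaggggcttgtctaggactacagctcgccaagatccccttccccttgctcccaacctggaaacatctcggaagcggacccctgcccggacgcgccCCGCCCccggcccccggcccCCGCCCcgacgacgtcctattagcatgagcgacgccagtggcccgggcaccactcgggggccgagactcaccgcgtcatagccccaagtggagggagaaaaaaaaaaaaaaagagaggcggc
Slc5a7: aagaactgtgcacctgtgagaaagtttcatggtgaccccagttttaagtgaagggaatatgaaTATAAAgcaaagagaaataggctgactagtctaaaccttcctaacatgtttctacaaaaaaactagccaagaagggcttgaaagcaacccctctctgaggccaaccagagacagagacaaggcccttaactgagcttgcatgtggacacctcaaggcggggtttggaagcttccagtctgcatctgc
Ache: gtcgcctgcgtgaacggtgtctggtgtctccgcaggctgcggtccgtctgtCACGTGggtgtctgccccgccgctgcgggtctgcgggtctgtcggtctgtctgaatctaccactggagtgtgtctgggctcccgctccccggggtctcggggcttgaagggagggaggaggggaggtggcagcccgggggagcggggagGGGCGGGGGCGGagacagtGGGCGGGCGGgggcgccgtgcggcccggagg

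The windows of the adjacent pair differ in base composition: 54.8% of the Chat bases and 66.0% of the Slc18a3 bases are G or C. The share is 45.6% for Slc5a7 and 73.6% for Ache. The letters CACGTG, searched on both strands, occur in 6.02% of the 32851 mouse RefSeq windows of 250 bases upstream of a start site. GGGCGG occurs in 32.7% of these windows and TATAAA in 12.4%. Bases after the start site were not searched. Of the 4 GGGCGG matches in the Ache window, the last 2 overlap each other. The homeodomain letters TAATTA and CTAATG, found in 4.84% and 6.36% of all windows, do not occur in the windows of the 6 genes with an entry. The other 2 of these are Lhx8 and Isl1, and Gbx1 was not matched. These matches describe the letters only.

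The libraries held between 20667122 and 36145161 counts, so 1 CPM, a count scaled to the size of its library, was at least 20 counts. Scn1a, the targeted gene, was at 133 and 169 CPM in the WT and at 26.4 and 16.3 CPM in the 1b-/- libraries. It was at 115 to 174 CPM in WT and 85.4 to 122 CPM in 1b+/- of the heterozygous round. The WT libraries of the homozygous round stood apart from their tissue label. Markers of dentate granule cells, a defining cell type of the hippocampus, summed to 18.4 and 22.5 CPM over 5 genes there, against 116 to 230 CPM in the other 9 libraries. The 14 striatal medium spiny neuron genes summed to 10097 and 4143 CPM there, against 304 to 545 CPM elsewhere. Levels were scaled over all 11 libraries, but the rounds differ in read type and gene table, so a difference between rounds and one between their mice cannot be told apart.

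The enzyme and the 2 transporters followed one pattern: high in both WT libraries of the homozygous round and low in the other 9. Chat was at 29.1 and 11.7 CPM (649 and 256 counts) in these WT libraries and at 0.0855 and 0.215 CPM (3 and 7 counts) in the 1b-/- libraries. The heterozygous round had 0.722, 0.391 and 0.0450 CPM in WT and 0.161, 0.0752, 0.0401 and 1.75 CPM in 1b+/-. The lower of the 2 high WT libraries was thus 6.71 times the highest of the other 9, which was 1b+/- replicate 4. In whole tissue, fewer cholinergic cells and less RNA per cell cannot be told apart.

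Slc18a3 was at 12.1 and 4.08 CPM (269 and 89 counts) in the WT and at 0.285 and 0.184 CPM (10 and 6 counts) in the 1b-/- libraries of the homozygous round. WT mice of the heterozygous round were at 0.614, 0.509 and 0.0450 CPM and 1b+/- mice at 0.0805, 0.113, 0.0401 and 1.43 CPM. The 2 genes of the locus thus ordered the libraries nearly alike. The lowest WT library of the homozygous round was 2.86 times the highest of the other 9 for Slc18a3.

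Slc5a7 was detected in every library. It was at 40.2 and 21.0 CPM in the WT and at 1.34 and 1.47 CPM in the 1b-/- libraries of the homozygous round. Its other WT values were 6.18, 4.23 and 2.16 CPM, and the 1b+/- libraries were at 2.54, 1.77, 1.84 and 8.24 CPM. No library had fewer than 46 counts of this gene, so unlike Chat it was not limited by counting in the low libraries.

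Ache was the exception among the genes of transmitter handling. It was at 82.7 and 71.3 CPM in the WT and at 77.2 and 116 CPM in the 1b-/- libraries of the homozygous round, and these groups overlapped. WT mice of the heterozygous round had 53.5, 44.5 and 45.2 CPM, and 1b+/- mice had 49.4, 42.1, 47.8 and 50.3 CPM, which again overlapped. Both WT libraries of the homozygous round were above every library of the heterozygous round, as for Chat, Slc18a3 and Slc5a7. Unlike those genes, Ache was not low in the 1b-/- libraries.

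**Figure D1:**
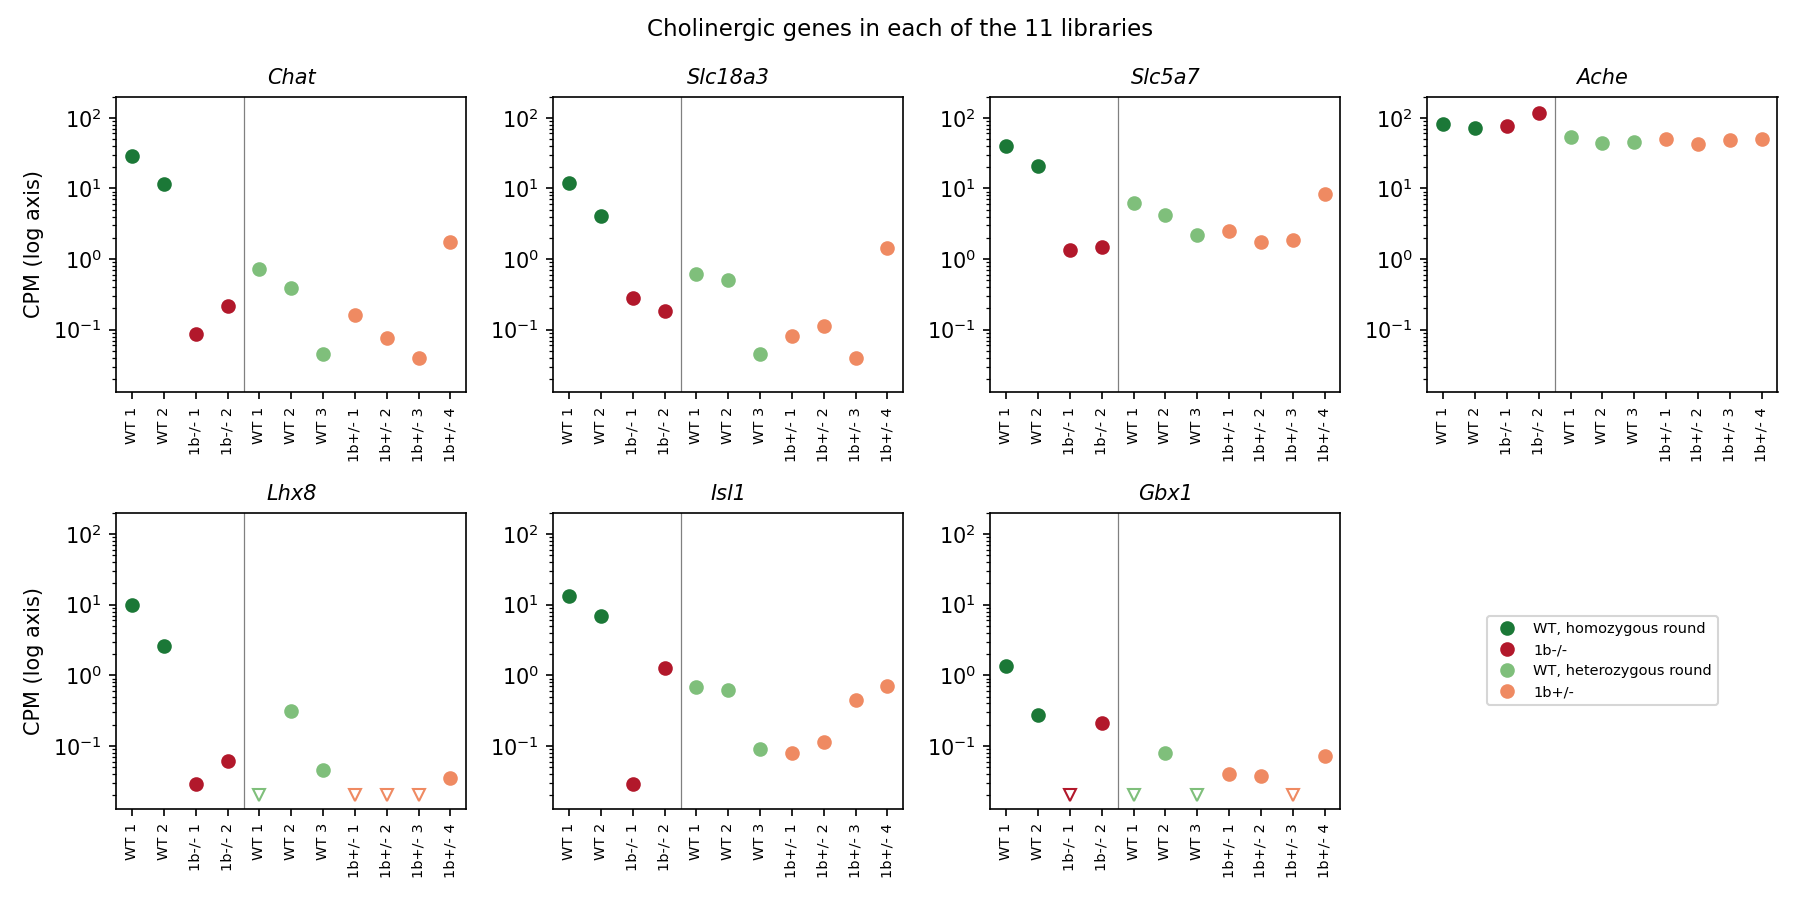
Level of each of the 7 genes in each of the 11 libraries, in CPM on a log axis, 1 point per library, with the homozygous round left of the grey line. Open triangles mark libraries with 0 counts. Both WT libraries of the homozygous round lie above the other 9 for every gene except Ache.

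The 3 transcription factors had the same 2 libraries at the top. Lhx8, which is needed for forebrain cholinergic neurons to form, was at 9.83 and 2.57 CPM (219 and 56 counts) in the WT and at 0.0285 and 0.0613 CPM (1 and 2 counts) in the 1b-/- libraries of the homozygous round. The heterozygous round had 0, 8 and 1 counts in WT and 0, 0, 0 and 1 counts in 1b+/-. Of the 9 libraries outside the high pair, 8 had 3 or fewer counts of Lhx8. The exception was WT replicate 2 of the heterozygous round, at 0.313 CPM.

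Isl1 was at 13.5 and 7.01 CPM in the WT and at 0.0285 and 1.29 CPM (1 and 42 counts) in the 1b-/- libraries of the homozygous round. WT mice of the heterozygous round had 0.686, 0.626 and 0.0901 CPM, and 1b+/- mice had 0.0805, 0.113, 0.441 and 0.714 CPM. Among the low libraries 1b-/- replicate 2 was the highest. Gbx1 had few counts everywhere, at 1.35 and 0.275 CPM (30 and 6 counts) in the WT and at 0 and 0.215 CPM (0 and 7 counts) in the 1b-/- libraries. It had 0 to 2 counts in every library of the heterozygous round. A count of 0 allows up to 3 counts, so its absence cannot be told from a low level.

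Per base of exon, Ache had the highest level in all 4 groups. In the WT libraries of the homozygous round it was at 16.7 ± 1.75 RPKM (CPM per kilobase of exon, SD, n = 2). Chat was at 7.27 ± 4.38 RPKM, Slc5a7 at 5.92 ± 2.62, Isl1 at 4.05 ± 1.81, Lhx8 at 2.46 ± 2.04 and Gbx1 at 0.228 ± 0.213 RPKM. This order was the same in both libraries, although Chat and Slc5a7 were close in replicate 2, at 4.18 and 4.06 RPKM. Between the 2 libraries the ranges of Chat and Slc5a7, Slc5a7 and Isl1, and Isl1 and Lhx8 overlapped. In the other groups Slc5a7 came next after Ache, with means of 0.272 RPKM in 1b-/-, 0.809 RPKM in WT and 0.695 RPKM in 1b+/- of the heterozygous round. In 1b-/- Isl1 followed closely with a mean of 0.260 RPKM and a range from 0.0113 to 0.510 RPKM, which spans that of Slc5a7 from 0.259 to 0.284 RPKM. Slc18a3 was left out of this order because its exon length was not analysed here.

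In the homozygous round, 6 of the 7 genes were lower in both 1b-/- libraries than in both WT libraries. This holds for 29.7% of all 14838 genes tested in that round, and the 7 genes were picked from this contrast. For Gbx1 it rests on 6 counts in WT replicate 2 and 7 in 1b-/- replicate 2, which separate only after scaling to library size. The difference, 1b-/- minus WT on the log2 scale, was -7.06 ± 0.69 (SE) for Chat, -5.08 ± 0.69 for Slc18a3 and -4.45 ± 0.38 for Slc5a7. It was -6.99 ± 0.99 for Lhx8, -3.96 ± 1.18 for Isl1, -2.89 ± 1.47 for Gbx1 and 0.33 ± 0.23 for Ache. Leaving out 1b-/- replicate 2, which leaves 1 library with 1 count of Isl1 and 0 of Gbx1, moved Isl1 to -8.29 and Gbx1 to -7.44, and leaving out replicate 1 moved them to -2.97 and -1.88. The fitted value of Lhx8 rests on 3 counts in 1b-/- and depends on the prior count of the fit. As a ratio of summed counts, WT over 1b-/-, Lhx8 was 141 with an exact 95% interval from 47.6 to 686, and Chat was 139 with an interval from 75.2 to 291. These intervals cover counting error only.

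These differences rest on WT libraries that went against their tissue label, and they were smaller for 4 of the 6 lower genes and turned for the other two when other WT mice were used. Against the 3 WT mice of the heterozygous round, the log2 ratio of mean CPM plus 0.5 was -0.45 for Chat, where it was -5.01 against the WT mice of the same round. For Slc18a3 it went from -3.55 to -0.28, for Lhx8 from -3.62 to -0.18 and for Slc5a7 from -4.03 to -1.30. It turned positive for Isl1, from -3.21 to 0.26, and for Gbx1, from -1.11 to 0.21. For Ache it went from 0.33 to 1.01. The round and the genotype cannot be told apart in the second set of values. Within the homozygous round, leaving out WT replicate 1 gave no called gene in the whole table, and leaving out WT replicate 2 gave 192, against 531 with all 4 libraries.

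The 1b+/- mice were compared with other WT mice than those on which the genes were chosen. In edgeR's quasi-likelihood test none of the 4 genes with at least 1 CPM in any library passed an adjusted p of 0.05, nor did they in the likelihood ratio test or, where it gave an adjusted p, in DESeq2, which gave none for Chat and Slc18a3. None of the 4 had an unadjusted p under 0.05. No gene of the 14630 tested passed the adjusted threshold, which is a background of 0%, although 1649 of them (11.3%) had an unadjusted p under 0.05. DESeq2 called 245 genes and edgeR's likelihood ratio test 191. In edgeR's quasi-likelihood fit the difference, 1b+/- minus WT on the log2 scale, was 0.37 ± 1.11 (SE) for Chat (adjusted p = 0.931), 0.09 ± 1.06 for Slc18a3 (adjusted p = 0.986), -0.23 ± 0.55 for Slc5a7 (adjusted p = 0.913) and -0.02 ± 0.08 for Ache (adjusted p = 0.964).

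For Chat and Slc18a3 the SE was over 1 on the log2 scale, so a change of that size was not detectable with these mice, whereas the SE of Ache was 0.08. The 3 transcription factors did not reach 1 CPM. Without the filter, edgeR gave -3.11 ± 1.41 for Lhx8 (unadjusted p = 0.0484, adjusted p = 0.513), -0.49 ± 0.70 for Isl1 (adjusted p = 0.848) and 0.46 ± 1.25 for Gbx1 (adjusted p = 0.939). The Lhx8 value rests on 9 counts over 3 WT libraries, 8 of them in replicate 2, and 1 count over 4 1b+/- libraries. For none of the 7 genes did the 2 groups separate, while 5.74% of all genes tested were lower in every 1b+/- library than in every WT library and 4.98% were higher. Two-sided exact permutation tests of the CPM values gave p = 0.943 for Chat, Slc18a3 and Ache, 0.771 for Slc5a7, 0.143 for Lhx8, 0.714 for Isl1 and 0.743 for Gbx1, unadjusted, where the smallest p that 35 splits allow is 0.0286.

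**Figure D2:**
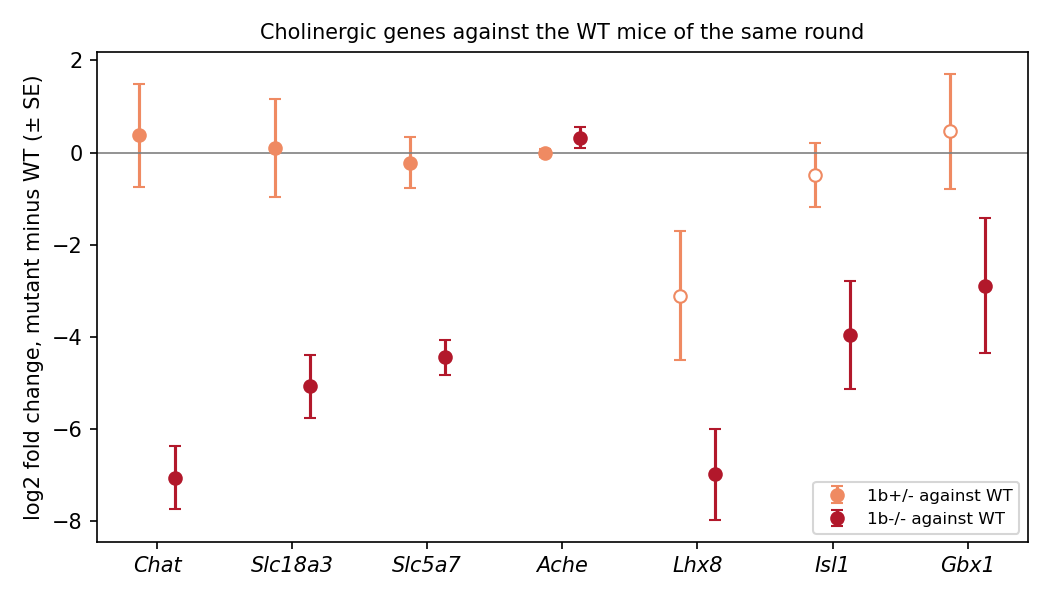
Difference in log2 level of each of the 7 genes, mutant minus the WT mice of the same round, with the standard error of the edgeR fit as bars (1b+/-: 4 against 3 mice, 1b-/-: 2 against 2 mice). Open points are genes under the filter of 1 CPM. The 1b-/- values of 6 genes lie between -7.06 and -2.89, and those of the 4 filtered 1b+/- genes between -0.23 and 0.37.

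Without 1b+/- replicate 4, Chat and Slc18a3 no longer reached 1 CPM in any library of the heterozygous round and dropped out of the test. That mouse, the only female of that round, was far above the other 3 for Chat, Slc18a3 and Slc5a7. A sex covariate fits that mouse alone in this round. With it the difference for Chat became -2.09 ± 0.89 (adjusted p = 0.462 in edgeR's test). For Slc18a3 it became -2.30 ± 0.86 (adjusted p = 0.413 in edgeR's test). Over the 10 alternatives that gave an adjusted p, it ran from 0.462 to 0.992 for Chat and from 0.413 to 0.997 for Slc18a3 in edgeR.

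The count ratios within a library separated the libraries in another way than the levels did. Lhx8 made up 25.2% of the summed Lhx8 and Chat counts in WT replicate 1 of the homozygous round (exact binomial 95% interval 22.4 to 28.3) and 17.9% in replicate 2 (13.9 to 22.7). Of 20 counts in WT replicate 1 of the heterozygous round it made up 0, for which the interval reaches 16.8%, and 1 of 50 in 1b+/- replicate 4, or 2% (0.0506 to 10.6). It made up 8 of 18 in WT replicate 2, or 44.4% (21.5 to 69.2). WT replicate 1 and 1b+/- replicate 4, the libraries with most Chat in that round, thus had a lower share of Lhx8 than WT replicate 2. Their intervals do not overlap with that of WT replicate 2. The intervals of these and the following shares cover counting error only, not the spread between mice, so they do not test a difference between mice. The remaining libraries had 9 or fewer counts of both genes together and wide intervals.

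Slc18a3 made up 29.3% (26.4 to 32.4) and 25.8% (21.3 to 30.8) of the summed Slc18a3 and Chat counts in the WT libraries of the homozygous round. In 1b+/- replicate 4 it made up 44.9% (34.4 to 55.9), above both. The shares of 45.9% in WT replicate 1 and 56.5% in WT replicate 2 of the heterozygous round rest on 37 and 23 counts. Slc5a7 made up 58.0% and 64.2% of the summed Slc5a7 and Chat counts in the high WT libraries and 82.5% to 98.0% in the other 9. Read type differs between the rounds, and its part in these shares was not tested.

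Isl1 parted from Chat in 2 libraries. It made up 85.7% (72.8 to 94.1) of the summed Isl1 and Chat counts in 1b-/- replicate 2 and 91.7% (61.5 to 99.8) in 1b+/- replicate 3, against 29.0% (18.7 to 41.2) in 1b+/- replicate 4. Choroid plexus genes, 5 in the list, summed to 13209 CPM in 1b-/- replicate 2 and 58.2 CPM in replicate 1, where Isl1 had 42 counts and 1 count. In 1b+/- they summed to 57.3, 1182, 2638 and 2150 CPM in replicates 1 to 4, so replicates 3 and 4 were similar in these genes but not in the Isl1 share. The high WT libraries had 41.7 and 3280 CPM of these genes. Their part in the Isl1 values was not tested.

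**Figure D3:**
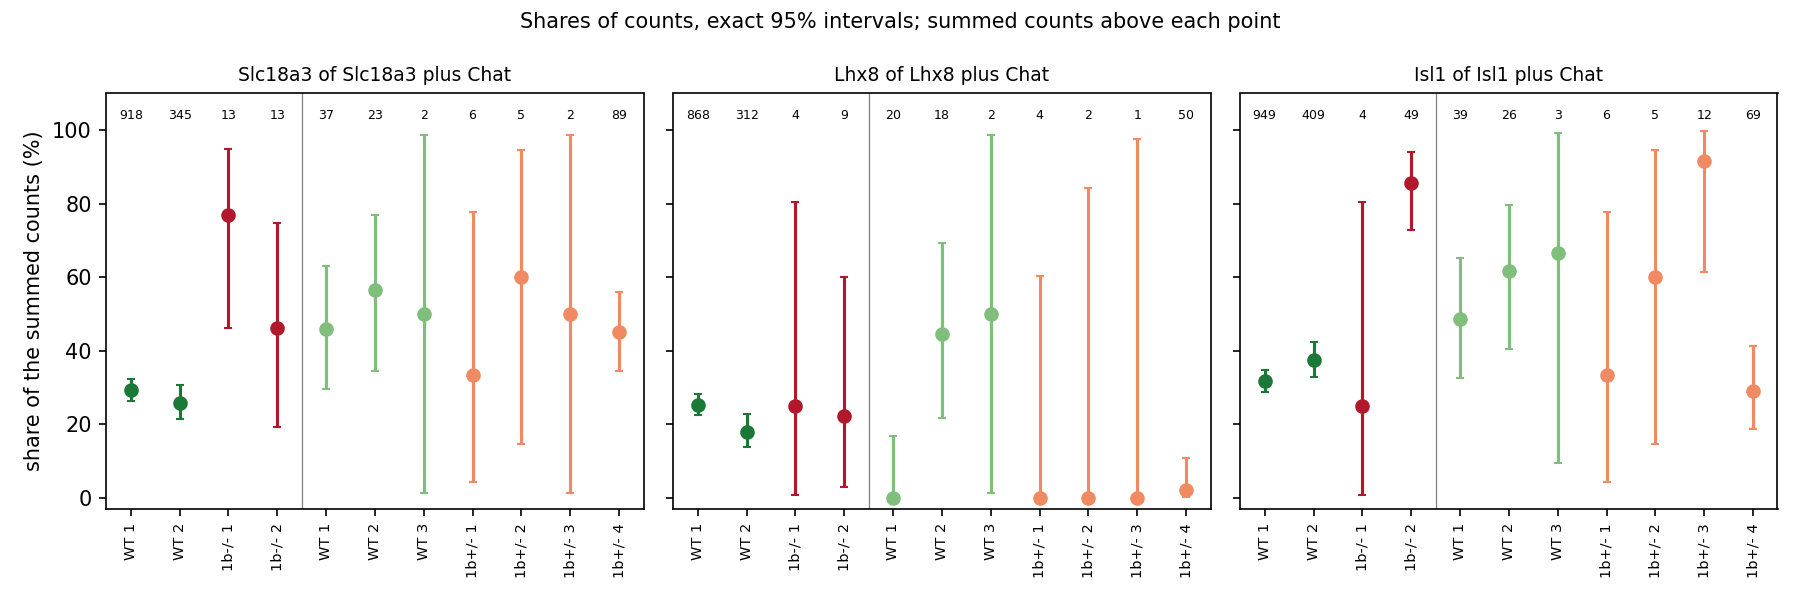
Share of the summed counts of a gene pair taken by Slc18a3, Lhx8 or Isl1 rather than Chat, in percent, for each of the 11 libraries. Bars are exact binomial 95% intervals, which cover counting error only, and the summed count is printed above each point. The Lhx8 share is 0% in WT replicate 1 and 2% in 1b+/- replicate 4 of the heterozygous round, beside 44.4% in WT replicate 2.

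The regional marker genes that were high beside Chat differed between the rounds. In the high WT libraries of the homozygous round the striatal genes were raised with it, and replicate 1 had more of both than replicate 2. Among them Penk, the precursor of enkephalin, was at 2097 and 874 CPM there against 12.7 to 70.6 CPM elsewhere, and Pde10a, a phosphodiesterase of medium spiny neurons, at 1340 and 564 CPM against 65.8 to 107 CPM. Medial habenula genes, 5 in the list, summed to 6.33 and 6.10 CPM there, and to 3.71 and 9.50 CPM in the 1b-/- libraries. They summed to 23.9 CPM in WT replicate 1 of the heterozygous round and 34.9 CPM in 1b+/- replicate 4, against 2.47 to 4.02 CPM in the other 5. Thalamus genes, also 5, summed to 460 and 334 CPM in the same 2 libraries, against 93.7 to 204 CPM.

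Pou4f1, a transcription factor of habenula neurons, was at 4.23 and 6.07 CPM in WT replicate 1 and 1b+/- replicate 4, against 0 to 0.429 CPM in the other 9 libraries. Gpr151, a receptor of habenula neurons, was at 6.72 and 10.9 CPM against 0.360 to 1.72 CPM, and Chrna3, a nicotinic receptor subunit, at 6.36 and 10.2 CPM against 0.789 to 1.79 CPM. Septum genes, 5 in the list, were at 37.4 and 68.3 CPM in the high WT libraries and at 74.4 to 177 CPM elsewhere. Within the heterozygous round their sum was highest in WT replicate 1 at 133 CPM and 1b+/- replicate 4 at 153 CPM, against 75.2 to 102 CPM in the other 5. Markers of cholinergic motor neurons and brainstem, also 5, summed to no more than 0.181 CPM in any library, with Mnx1 and the others at or near 0. WT replicate 2 of the heterozygous round, the library with Lhx8, had the highest striatal sum of its round at 545 CPM and a habenula sum of 2.47 CPM. The part of these regions in the cholinergic values was not tested. Pou4f1 was named after its values were seen.

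**Figure D4:**
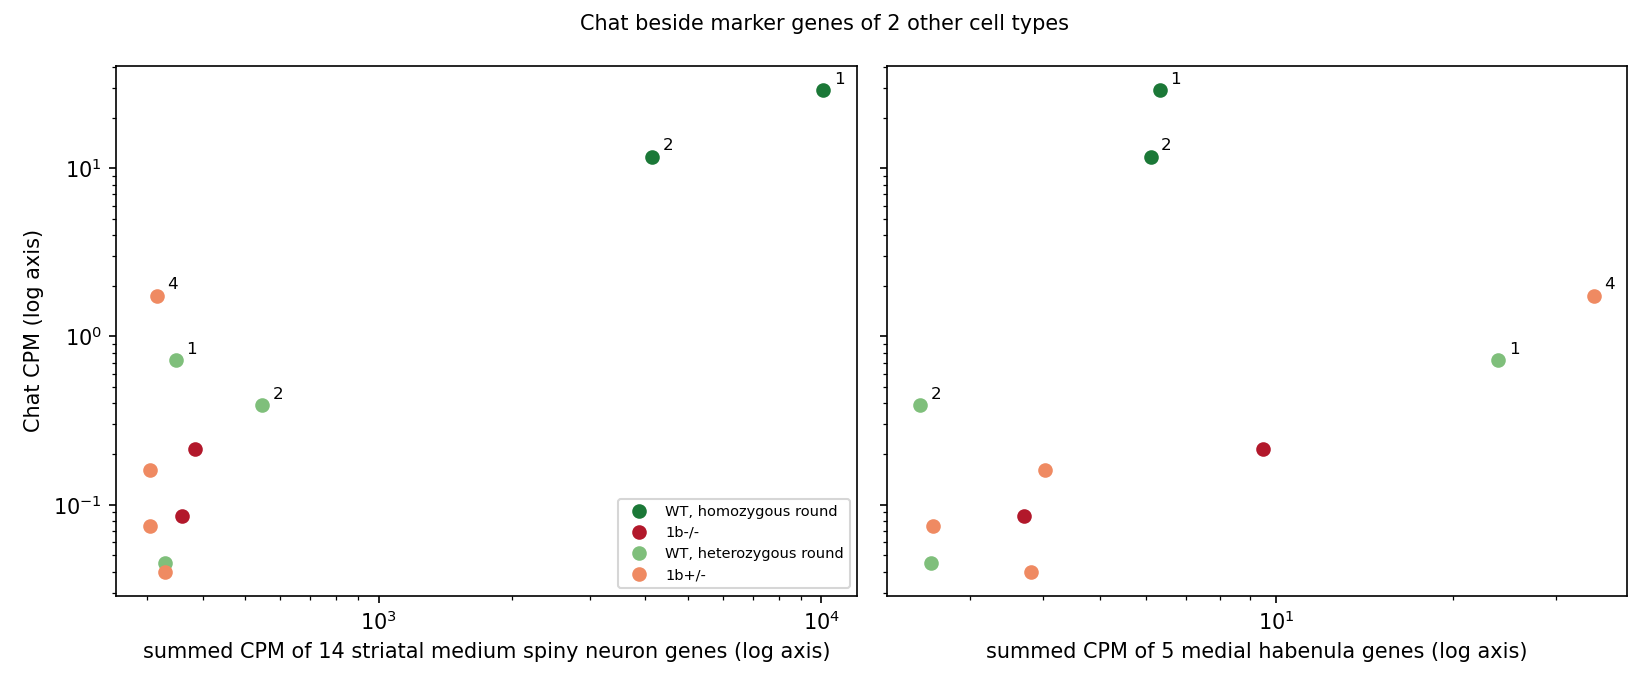
Chat level of each of the 11 libraries against the summed level of 14 striatal genes (left) and 5 medial habenula genes (right), in CPM on log axes, with replicate numbers beside libraries over 0.3 CPM of Chat. The WT libraries of the homozygous round are at 10097 and 4143 CPM of striatal genes, and WT replicate 1 and 1b+/- replicate 4 of the heterozygous round at 23.9 and 34.9 CPM of habenula genes.

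Without WT replicate 1 and 1b+/- replicate 4, an alternative set after the data were seen, the heterozygous round called 408 genes. Of the 7 cholinergic genes only Slc5a7 and Ache were then tested, and neither was called. With WT replicate 2 left out as well, which leaves 1 WT library whose spread is taken from the 1b+/- mice, it called 244 genes and again neither of these.

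Other genes of forebrain cholinergic neurons were described from a list of 6. In the homozygous round 5 of them were lower in both 1b-/- than in both WT libraries without overlap, beside 29.7% of all genes tested. None passed an adjusted p of 0.05 in edgeR's test, against 1.52% of all genes called lower, 2.06% called higher and 3.58% called in either direction. Their median difference was -2.05 on the log2 scale and that of all genes tested was 0.00 to 2 decimals. Slc17a8, a vesicular glutamate transporter, was at 11.6 and 17.5 CPM in the WT and 6.07 and 7.26 CPM in the 1b-/- libraries (adjusted p = 0.0789 in edgeR's test). Zic4, a transcription factor of septal neurons, overlapped between the groups of both rounds. In 1b+/- Slc17a8 was above WT without overlap, at 5.97 to 7.74 CPM against 5.50 to 5.96 CPM (adjusted p = 0.382 in edgeR's test).

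The neurotrophins Bdnf and Ntf3 did not pass the test in either round. Bdnf was at 7.63 and 14.8 CPM in the WT and at 35.5 to 42.1 CPM in the 1b-/- libraries (adjusted p = 0.0589 in edgeR's test), and was between 40.5 and 50.8 CPM in all 7 libraries of the heterozygous round. Ntf3 was at 0.314 and 1.10 CPM in the WT and 4.57 and 8.44 CPM in the 1b-/- libraries. Bdnf and Ntf3 were thus low in the libraries where the cholinergic genes were high.

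Of 8 further genes of acetylcholine and choline handling, 7 were tested in the homozygous round and 0 passed, with a median of -0.44 on the log2 scale. Of these, 6 were lower in both 1b-/- libraries without overlap, beside 29.7% of all genes tested. They differed widely in size. Slc10a4, a vesicle protein of cholinergic and monoamine neurons, also belongs to the forebrain cholinergic list above. The counts and medians of both lists therefore share it. It was at 18.2 and 7.38 CPM in the WT and at 0.542 and 2.02 CPM in the 1b-/- libraries. Prima1, which anchors Ache to membranes, was at 12.8 and 6.10 CPM against 2.48 and 3.46 CPM, and Colq, the collagen tail of Ache, at 2.96 and 2.25 CPM against 0.770 and 0.552 CPM. These 3 were named after their values were seen. Among WT mice of the heterozygous round, Slc10a4 was at 0.361 to 0.978 CPM. Prima1 was at 1.31 to 3.21 CPM there and Colq at 0.270 to 1.19 CPM. All 3 were thus high only in the WT libraries of the homozygous round. Slc44a1, a choline transporter found in many cell types, was at 127 to 146 CPM in the WT and 93.7 to 108 CPM in the 1b-/- libraries. Chka, a choline kinase, was at 45.7 to 49.1 CPM and 41.0 to 43.7 CPM. Of the 6 tested in 1b+/-, 0 passed, with a median of 0.16.

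Of 16 acetylcholine receptor genes tested in the homozygous round, 2 passed, 1 in each direction, beside 1.52% of all genes called lower and 2.06% called higher. Neither was called without WT replicate 1, which left no call in the table. The muscarinic receptor Chrm1 was at 166 and 181 CPM in the WT and at 311 and 330 CPM in the 1b-/- libraries. The difference was 0.88 ± 0.13 on the log2 scale (adjusted p = 0.0349 in edgeR's test). Chrm4 is an inhibitory receptor that striatal neurons use. It was at 64.5 to 108 CPM in the WT and 17.8 to 24.9 CPM in the 1b-/- libraries. Its difference was -2.02 ± 0.30 on the log2 scale (adjusted p = 0.0367 in edgeR's test). Both receptors overlapped between the groups of the heterozygous round. WT mice of that round were at 216 to 271 CPM of Chrm1 and 30.2 to 36.4 CPM of Chrm4. Their striatal sum was 329 to 545 CPM, and that of 1b+/- was 304 to 329 CPM. Of the nicotinic subunits 11 of 13 were tested in the homozygous round and 0 passed. Chrna4 overlapped between the groups, and Chrnb2, a subunit of the main brain nicotinic receptor, was at 58.6 to 68.2 CPM in the WT and 73.2 to 82.1 CPM in the 1b-/- libraries. None of the 5 muscarinic and 10 nicotinic genes tested passed in 1b+/-.

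Genes of other cell types and regions also differed between the groups of the homozygous round, where 11 of 14 striatal genes were called lower and 3 of 5 dentate granule cell and 3 of 5 CA3 genes higher in 1b-/-, beside 1.52% of all genes called lower and 2.06% called higher. Without WT replicate 1 none of these calls remained, since no gene was called. Fibcd1 was the CA1 gene of 4 called higher, at 9.95 to 18.4 CPM in the WT and 143 to 170 CPM in the 1b-/- libraries (adjusted p = 0.0207 in edgeR's test). Gad2, which makes GABA, was the interneuron gene of 7 called lower (adjusted p = 0.0386 in edgeR's test). Of the neocortex genes 1 of 5 was called lower, and of the septum, medial habenula, thalamus, hypothalamus and choroid plexus lists none passed. No gene of these lists passed in the heterozygous round. Hypothalamus genes summed to 3.28 and 8.94 CPM in the high WT libraries, more than in the other 9.

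The 8 genes whose levels were most like those of Chat over all 11 libraries, by Pearson's r of log2(CPM + 0.5) among 13994 genes, were Syt6, Slc8a3, Rgs4, Acly, Epb4.1, Ctso, Inpp5f and Slc6a6, with r from 0.96 to 0.98. Slc18a3 had r = 0.99 with Chat, Slc5a7 0.97, Isl1 0.95, Lhx8 0.94, Gbx1 0.86 and Ache 0.38. These values are set by the high pair of WT libraries, which share their round and group, and they carry no test. Rgs4, a regulator of G protein signalling, was at 847 and 1090 CPM in those libraries and at 193 to 289 CPM in the other 9, and Syt6, a synaptotagmin, at 82.9 and 143 CPM against 7.03 to 20.1 CPM. Within the 7 libraries of the heterozygous round, r with Chat was 0.98 for Slc18a3, 0.97 for Slc5a7, 0.75 for Isl1, 0.58 for Ache, 0.49 for Gbx1 and 0.12 for Lhx8. Chat had 49 counts in 1b+/- replicate 4, 20 in WT replicate 1 and 10 or fewer in the others of that round. Slc18a3 and Slc5a7 were highest in the same libraries, and how far r depends on those libraries was not tested. The values of Lhx8 and Gbx1 also rest on few counts, with 0 in 4 of 7 libraries for Lhx8.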

How the data were processed

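Hippocampal RNA from 11 mice was sequenced in 2 rounds, single-end in the homozygous and paired-end in the heterozygous round, from stranded mRNA libraries. Both deposited tables hold unnormalized counts for each gene symbol, which the authors made with STAR 2.7.2 (alignment to mm9) and featureCounts. The labels name the 2 tables the other way round than their column names do, and columns were matched by name. Each table holds 27 symbols turned into dates, with 0.300% to 0.372% of the counts. These stayed within a round and were left out where the tables were joined (23645 genes).

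Genes that reached 1 CPM in 1 or more libraries of a round were tested with edgeR 4.0.16 in R 4.3.3 (TMM factors, glmQLFit and glmQLFTest, Benjamini-Hochberg adjustment, threshold 0.05), each mutant group against the WT mice of its round. Members under the filter were taken from the same fit without it. SE is the absolute log2 fold change over the square root of F. CPM values were TMM-scaled over all 11 libraries, and RPKM used exon-union lengths of the mm9 GENCODE annotation. Exact permutation tests were two-sided. On simulated counts the fitting code recovered most of the changed genes.

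The members and all lists were chosen with earlier results of these data known. Named were the 7 members, called genes of the acetylcholine handling, forebrain cholinergic and receptor lists (otherwise the 2 of highest mean CPM), the 2 of highest mean CPM in each other list, the 8 genes most like Chat, and Scn1a. Alternatives were RLE factors, no filter, DESeq2 1.42.0, edgeR's likelihood ratio test, sex as a covariate, each library left out, and the longest transcript for RPKM. Leaving out several libraries together, and using the WT mice of the other round, were added after the data were seen. The labels do not say how the mice relate to litters, and no pair of libraries agreed within sampling noise. Some listed genes are not reported here.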

Additional observations from a re-analysis of the deposited data

Results flagged for a closer look

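Among the 4 libraries of the 1b+/- group, replicate 4 lay far above the other 3 for several genes, by Dixon's gap over the range at its 95% critical value of 0.829. This held for Chat at 1.75 CPM, Slc18a3 at 1.43 CPM and Slc5a7 at 8.24 CPM among the cholinergic genes. It also held for the habenula genes Pou4f1 at 6.07 CPM, Gpr151 at 10.9 CPM and Chrna3 at 10.2 CPM, and for Zic4 at 12.5 CPM. Lhx8 and Isl2 were flagged at 0.0357 CPM each, which is 1 count beside 3 libraries with 0. The rule was applied to 41 genes in this group and picked 9. All 9 flags fell on replicate 4 and the genes were measured in the same 4 libraries. The flags are therefore not independent, and their number cannot be set against a chance rate. Replicate 4 was the only female of its round, so sex and this library cannot be told apart.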

How the results depend on the processing

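No member that was tested passed the threshold in 1b+/-. This covers 14 alternatives for Slc5a7 and Ache and 10 with an adjusted p for Chat and Slc18a3, while Lhx8, Isl1 and Gbx1 were tested only without the filter. No paired analysis was possible because the labels give no replicate numbers shared between groups. Over all genes, the 0 calls in 1b+/- became 44 with no filter (42 lower), 245 with DESeq2 (185 lower) and 191 with the likelihood ratio test (156 lower). They ranged from 0 to 421 with each library left out, the highest without WT replicate 1 and 1 without 1b+/- replicate 3. They were 408 without WT replicate 1 and 1b+/- replicate 4, and 244 without WT replicate 2 as well. The 531 calls in 1b-/- became 1029 with no filter, 2144 with DESeq2 and 1829 with the likelihood ratio test, and ranged from 0 (without WT replicate 1) to 693 (without 1b-/- replicate 1). Other normalization factors gave 0 calls in 1b+/- and 536 in 1b-/-. The sex covariate fits the only mouse of its sex in each round alone, 1b+/- replicate 4 and 1b-/- replicate 1. It therefore gave nearly the values found without that mouse and cannot tell sex from it. For Slc5a7 in 1b+/- both values were -1.05, and for Chat in 1b-/- they were -6.53 and -6.52. The cause of the changes in the number of calls was not tested. Directions in 1b+/- turned as follows on the log2 scale. With the sex covariate Chat was -2.09 and Slc18a3 -2.30, and without WT replicate 3 they were -0.10 and -0.39. Slc5a7 was 0.0026 without 1b+/- replicate 2 and 0.17 without WT replicate 1. Ache was 0.038 and 0.076 in the same fits, and 0.046 and 0.034 in the added ones with 2 and 3 libraries left out. With each library left out, the values ran from -0.10 to 1.18 for Chat, from -0.39 to 0.56 for Slc18a3, from -1.05 to 0.17 for Slc5a7 and from -0.058 to 0.076 for Ache. Ache in 1b-/- ran from -0.020 (without 1b-/- replicate 2) to 0.61, Isl1 from -8.29 to -2.97 and Gbx1 from -7.44 to -1.88, with no value for Gbx1 without WT replicate 1, where it fell under the filter. Against the WT mice of the other round, Isl1 was 0.26 and Gbx1 0.21. With the longest transcript Ache was at 20.9 RPKM in the high WT libraries. Counting limits Lhx8, Gbx1 and, outside the high WT libraries, Chat and Slc18a3.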
